A study of Mus musculus with 6 samples.

Results

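The mouse miRNAs mmu-miR-1, mmu-miR-206, mmu-miR-133a and mmu-miR-133b (below without the species prefix), which mark striated muscle, were followed through retinal samples of mice with and without experimental autoimmune uveoretinitis (EAU), a T cell driven inflammation of the retina. They were taken as every probe whose array name holds one of these 4 mouse names, which gave 4 of 1749 named probes (597 with a mouse name), each spotted 4 times per array, 16 spots in all. The EAU group was 3 samples of retinal cells from B10.RⅢ mice developing EAU, taken on day 14, and the naive group was 3 samples of retinal cells from naive B10.RⅢ mice, all aged 8 weeks. The sources used here do not give how EAU was induced, how many mice each sample holds or how the retina was dissected. The samples were harvested independently, so p-values measure the spread between harvests. Each sample RNA carried the dye Hy3 and shared its array with an Hy5-labelled pool of the same samples, so log2(Hy3/Hy5) is a level relative to that pool.

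Striated muscle fibres make these miRNAs under the control of myogenic transcription factors, and the retina, a neural tissue, is not known as a main source of them. MiR-1 and miR-206 share a seed, the stretch that pairs with target mRNAs, and favour muscle differentiation, miR-206 mostly in skeletal muscle and near the neuromuscular synapse. MiR-133a and miR-133b are almost identical to each other and are best known for holding back serum response factor and other muscle genes. The eye muscles insert on the sclera outside the retina, so the question put to these probes was how much muscle miRNA signal each retinal sample carried, and whether it differed between EAU and naive samples.

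The mature forms of miR-206 and miR-133b are shown as 1 miRNA of each seed family among the 4, with the seed (bases 2 to 8) in capitals, from RefSeq (GRCm38.p6). Both lie on the plus strand of chromosome 1, miR-206 at chr1:20679055-20679076 and miR-133b at chr1:20682834-20682855.
miR-206: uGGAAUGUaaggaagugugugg
miR-133b: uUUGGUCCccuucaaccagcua
The hairpins that give rise to them are printed below, with the mature arm in capitals, to show the precursors of this pair. The Mir206 hairpin spans chr1:20679010-20679082 and the Mir133b hairpin chr1:20682769-20682887, with 3686 bases between them, and both overlap the annotated gene Lincmd1.
Mir206: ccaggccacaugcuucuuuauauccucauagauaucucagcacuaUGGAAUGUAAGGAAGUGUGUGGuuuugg
Mir133b: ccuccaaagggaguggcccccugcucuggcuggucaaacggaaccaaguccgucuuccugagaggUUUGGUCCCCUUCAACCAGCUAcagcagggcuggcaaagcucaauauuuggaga
In the same annotation Mir1a-1 and Mir133a-2, which encode miR-1 and miR-133a, both overlap the gene Mir1a-1hg. The seeds of the printed pair differ, so miR-206 and miR-133b belong to separate target families although their genes are neighbours.

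The arrays were dim. The median Hy3 spot signal ranged from 56.2 to 94.8 scanner units on the EAU arrays and from 56.8 to 74.2 on the naive arrays, over a local background of 22 to 24. The 144 blank and negative-control spots set a blank level, their median plus 3 median absolute deviations, of 65.4 to 107 on the EAU arrays and 65.7 to 92.1 on the naive arrays. A probe counts as above the blanks where at least 50% of its spots are. The number of arrays, 3 per group, and signals near the blanks both limit the precision. Retinal markers differed in detection. MiR-124 of neurons had a raw Hy3 signal of 5850 to 49475 over the 6 arrays. All 3 photoreceptor miRNAs (miR-96, miR-182, miR-183) were above the blanks on every array. Of the other neuron markers, miR-9 and miR-129-3p were above the blanks on 3 EAU and 3 naive arrays. MiR-138 was above on 2 EAU and 3 naive arrays, and miR-128 on 1 EAU and 1 naive array. The day of the scan was shared within each group and differed between the groups, and no slide held more than 1 array, so an effect of group and an effect of scan cannot be told apart.

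All 4 muscle miRNAs gave a signal near the blank level in most samples. By the blank level above, the 4 probes were above the blanks on 24 of 24 probe and array pairs, beside 33.0% of the 597 mouse probes (197) that were above on all 6 arrays. The share of mouse probes above the blanks was 49.2%, 52.8% and 41.7% on EAU arrays 1 to 3, and 42.2%, 48.9% and 46.2% on naive arrays 1 to 3. The margin of the muscle probes was narrow. With the deviation scaled to that of a normal distribution, 13 of 24 pairs lay above, miR-206 on all 6 arrays, beside 27.8% of mouse probes on all 6 (166). MiR-1 then lay above on naive replicate 1 alone and miR-133b on naive replicate 2 alone. With the 95th percentile of the blanks as the level, 0 of 24 pairs lay above, beside 10.4% of mouse probes (62) that passed that percentile on at least 1 array.

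MiR-1, the most abundant miRNA of heart and skeletal muscle, had a mean raw Hy3 signal of 77.1, 117 and 65.8 on EAU arrays 1 to 3, against 193, 96.8 and 71.4 on naive arrays 1 to 3. Naive replicate 1 was the high sample, and the other 2 naive arrays lay within the range of the EAU arrays. The 4 spots of that array differed little, with an SD of 8.12 around the mean of 193, while the blank level there was 89.3. Of the blank spots, 12.5% were brighter than miR-1 on naive replicate 1, and 19.4% to 27.1% on the other 5 arrays. As log2(Hy3/Hy5) miR-1 read 0.06, 0.11 and 0.02 in EAU replicates 1 to 3, against 0.57, 0.23 and 0.15 in naive replicates 1 to 3. All 3 EAU values lay below all 3 naive values on this scale. The difference of EAU minus naive was -0.25 (SE 0.12, 95% interval -0.54 to 0.04) and did not pass (limma, adjusted p = 0.186). Without naive replicate 1 it was -0.12 (adjusted p = 0.169).

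MiR-206, the skeletal muscle member of the miR-1 seed family, was brightest at the same 1 of its 4 spots on all 6 arrays. Its mean raw Hy3 signal was 191, 284 and 140 on EAU arrays 1 to 3, against 160, 224 and 82.4 on naive arrays 1 to 3. The first of its spots read 448, 440 and 330 on the EAU arrays and 323, 380 and 97.6 on the naive arrays. The local background around that spot was 273, 106 and 207 on the EAU arrays and 95, 227 and 23 on the naive arrays, beside array medians of 22 to 24. Naive replicate 3 was the only one of the 6 arrays without raised background at that spot, and there the 4 spots read 76.8 to 97.6. On naive replicate 2 a second spot also had a raised local background, of 81, and read 317.

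Leaving out spots whose local background was over 2 times the array median, a choice made after these spots were seen, lowered miR-206 to 106, 231 and 76.5 on EAU arrays 1 to 3, against 106, 99.8 and 82.4 on naive arrays 1 to 3. EAU replicate 2 then stood alone, with its other 3 spots at 194 to 279. That array also had the highest median Hy3 signal (94.8) and the highest blank level (107). The groups overlapped. As log2(Hy3/Hy5), with all spots, miR-206 read -0.09, -0.04 and -0.21 in EAU replicates 1 to 3, against -0.03, 0.03 and 0.08 in naive replicates 1 to 3. EAU values lay below naive ones by a gap smaller than the spread within either group, and the difference of -0.14 (SE 0.05, 95% interval -0.27 to -0.01) did not pass (limma, adjusted p = 0.124). Without the spots of raised background it was -0.06 (adjusted p = 0.374). In the Hy3 channel alone the sign turned, to 0.04 (adjusted p = 0.918).

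**Figure D1:**
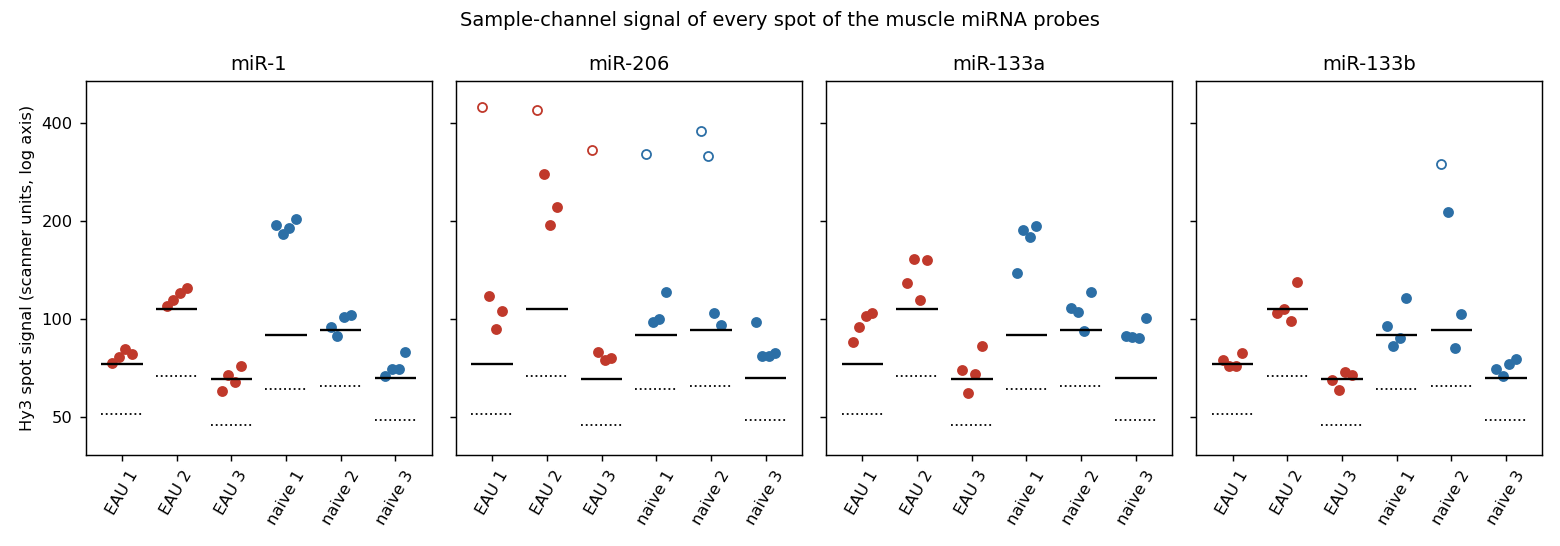
Hy3 signal of every spot (scanner units, log axis) of the 4 muscle miRNA probes on EAU arrays 1 to 3 (red) and naive arrays 1 to 3 (blue). Solid bars are each array's blank level, dotted bars the median of its blank spots, and open circles spots with a local background over 2 times the array median. Most filled circles lie close to the blank level, miR-1 and miR-133a of naive replicate 1 and miR-206 of EAU replicate 2 lie above it, and the brightest miR-206 spots are open.

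MiR-133a, the partner of miR-1 in shared transcripts, followed the same samples as miR-1. Its mean raw Hy3 signal was 96.3, 137 and 69.6 on EAU arrays 1 to 3, against 175, 107 and 91.1 on naive arrays 1 to 3. Naive replicate 1 was again the highest, and the groups overlapped. As log2(Hy3/Hy5) it read -0.15, -0.15 and -0.36 in EAU replicates 1 to 3, against 0.27, 0.09 and -0.15 in naive replicates 1 to 3. Naive replicate 3 lay among the EAU values. The difference was -0.29 (SE 0.12, 95% interval -0.60 to 0.02) and did not pass (limma, adjusted p = 0.164). Without naive replicate 1 it was -0.19 (adjusted p = 0.341) and without naive replicate 3 it was -0.40 (adjusted p = 0.0779).

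MiR-133b, the partner of miR-206, had the fewest spots above the blank level. Its mean raw Hy3 signal was 74.2, 110 and 65.3 on EAU arrays 1 to 3, against 95.2, 175 and 71.2 on naive arrays 1 to 3. The value of naive replicate 2 rested on 2 spots at 301 and 213 beside 2 at 81.1 and 104. The brightest of them had a local background of 149. On the 3 EAU arrays and naive replicate 1, 2 of 4 spots exceeded the blank level, against 3 on naive replicate 2 and 4 on naive replicate 3. As log2(Hy3/Hy5) miR-133b read -0.11, -0.16 and -0.24 in EAU replicates 1 to 3, against 0.00, 0.03 and -0.10 in naive replicates 1 to 3, so that the groups did not overlap but nearly touched. The difference was -0.15 (SE 0.05, 95% interval -0.27 to -0.02) and did not pass (limma, adjusted p = 0.104).

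On the ratio scale, then, 0 of 4 muscle miRNAs passed an adjusted p of 0.05, beside 77 of 596 tested mouse probes (12.9%), 52 of them lower in EAU (8.72%). At an unadjusted limma p under 0.05, miR-133b and miR-206 were lower in EAU. That is 2 of 4, beside 139 of the 596 lower in EAU (23.3%) and 205 in either direction (34.4%). All 4 differences were below 0, as were 58.1% of all differences (346), and their median was -0.20, beside a median of -0.01 over all tested probes. The groups did not overlap for 3 of 4 muscle miRNAs, lower in EAU, beside 174 of 592 probes with a value on every array (29.4%) and 275 in either direction (46.5%). In bulk samples such as these, fewer cells of a type and less RNA per cell cannot be told apart.

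Because the reference is a pool of the same samples, the Hy3 channel was also read alone, after loess and quantile normalization of the mean intensities between arrays. Normalized log2 Hy3 of miR-1 was 6.28, 6.26 and 6.28 in EAU replicates 1 to 3, against 7.08, 6.36 and 6.35 in naive replicates 1 to 3. That of miR-133a was 6.39, 6.26 and 6.28 in EAU, against 6.94, 6.38 and 6.51 in naive. In both, naive replicate 1 was the high sample, and the EAU values were close together. MiR-133b averaged 6.20 ± 0.06 in EAU and 6.42 ± 0.13 in naive, and miR-206 6.64 ± 0.10 in EAU and 6.60 ± 0.13 in naive (SD, n = 3 each). Differences in this channel were -0.32 for miR-1, -0.30 for miR-133a, -0.22 for miR-133b and 0.04 for miR-206, with limma adjusted p-values from 0.130 to 0.918. Again 0 of 4 passed, beside 63 of 596 (10.6%), 34 of them lower in EAU (5.70%). The groups did not overlap for miR-1 and miR-133b, lower in EAU, beside 94 of 592 probes (15.9%) and 186 in either direction (31.4%).

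The value table that the authors deposited, a linear Hy3 over Hy5 ratio per probe whose normalization and centring are not stated, gave larger differences of the same sign. MiR-133a had a deposited ratio of 0.791, 0.652 and 0.731 in EAU replicates 1 to 3, against 1.504, 1.23 and 1.17 in naive replicates 1 to 3. All 3 EAU ratios lay well below all 3 naive ratios, and the log2 difference of -0.84 (SE 0.18, 95% interval -1.23 to -0.45) passed (limma, adjusted p = 0.0067). MiR-1 had a deposited ratio of 1.10, 1.28 and 0.914 in EAU replicates 1 to 3, against 2.73, 1.49 and 1.18 in naive replicates 1 to 3. Its groups overlapped and the log2 difference of -0.63 (SE 0.26) did not pass (adjusted p = 0.113). MiR-133b (-0.41, adjusted p = 0.163) and miR-206 (-0.33, adjusted p = 0.284) did not pass either. Among the deposited ratios, then, miR-133a alone of the 4 passed, beside 40 of 588 probes lower in EAU (6.80%) and 82 in either direction (13.9%). The groups of miR-133a and miR-133b did not overlap, beside 97 of 588 lower in EAU (16.5%) and 193 in either direction (32.8%). The call of miR-133a held in the deposited values and not in the scanner signals processed here.

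**Figure D2:**
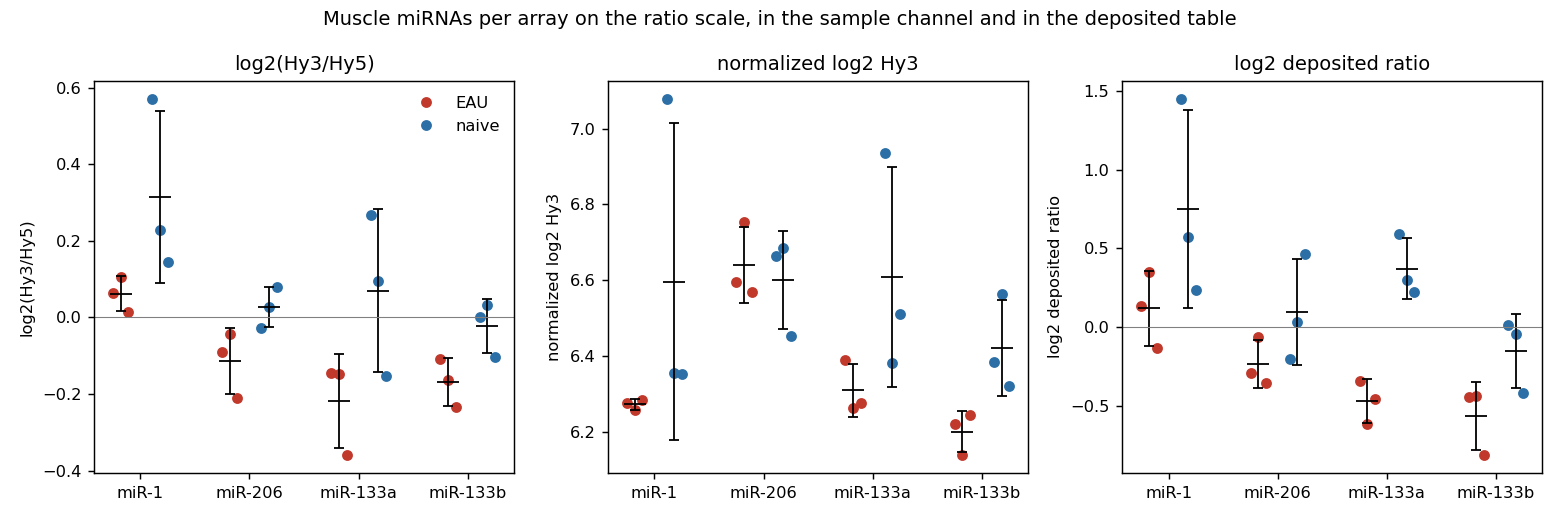
Level of each muscle miRNA per array as log2(Hy3/Hy5), as normalized log2 Hy3 and as log2 of the deposited ratio (3 panels, log2 units), EAU in red and naive in blue, points in replicate order from left to right, black bars mean ± SD (n = 3). Naive replicate 1 is the highest point of miR-1 and miR-133a in all 3 panels, and the clearest gap between groups is that of miR-133a in the deposited table.

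In the pool the muscle probes were dim too. Raw Hy5 signals of miR-1 were 33.6 to 37.3 on EAU arrays and 33.2 to 37.9 on naive arrays, with an Hy5 background near 30 and at most 1 of 4 spots above the Hy5 blanks on any array. For miR-133a they were 40.3 to 46.7 on EAU arrays and 43.4 to 45.2 on naive arrays, with at least 3 of 4 spots above the Hy5 blanks. The Hy5 signal of miR-206 was 54.7 to 60.3 on EAU arrays and 35.3 to 76.8 on naive arrays, and that of miR-133b 37.6 to 43.2 on EAU arrays and 38.8 to 63.4 on naive arrays. The highest Hy5 values of both were those of naive replicate 2, where the mean local Hy5 background was 48 around miR-206 and 39.8 around miR-133b, beside an array median of 30.

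With all spots kept, the muscle miRNAs did not all follow one another over the 6 arrays. The log2 ratio of miR-1 went with that of miR-133a (Pearson r = 0.926) and that of miR-133a with miR-133b (r = 0.915). MiR-133a and miR-133b are almost identical, and whether the probe of either binds the other was not tested. MiR-1 and miR-133b had r = 0.733. For miR-206 the values were 0.671 with miR-133b, its neighbour in the genome, 0.532 with miR-133a and 0.383 with miR-1. In the Hy3 channel the pair of miR-1 and miR-133a remained close (r = 0.960), miR-133a and miR-133b did not (r = 0.364), and miR-206 ranged from -0.06 to 0.15 with the others. These values describe 6 arrays that share the same Hy5 pool. They include the spots of raised local background, which miR-206 had on every array but naive replicate 3. MiR-133b had 1 such spot, on naive replicate 2, while miR-1 and miR-133a had none. Correlations without those spots were not computed. Whether the lower correlations of miR-206 and miR-133b rest on those spots was therefore not tested. Their differences of EAU minus naive without those spots were -0.06 and -0.14 (limma, adjusted p = 0.374 and 0.126).

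Of the 588 other mouse probes with a value on every array, the 5 whose log2 ratio was most like the mean of the 4 muscle miRNAs were miR-135b (r = 0.941), miR-452 (0.932), miR-187 (0.927), miR-503* (0.927) and miR-384-3p (0.925). In all, 11 probes had r over 0.9, and the median over all probes was 0.265. Among these 5, miR-135b passed the comparison of EAU with naive, lower by 0.16 (adjusted p = 0.0468), and miR-187 was above the blanks on 0 of 6 arrays.

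Further probes of striated muscle miRNAs were read as a second view. Of 10 names, 6 were on the arrays. MiR-208a and miR-208b, which are made from myosin heavy chain genes of heart and slow muscle, differed by -0.03 and 0.07 (adjusted p = 0.774 and 0.441). MiR-208a was above the blanks on 2 EAU and 3 naive arrays, and miR-208b on 1 EAU and 1 naive array. MiR-499, another myosin-encoded miRNA, was above the blanks on 0 of 6 arrays and differed by -0.02 (adjusted p = 0.551). MiR-133a*, the other arm of the miR-133a hairpin, and miR-1-2-as, from the strand opposite a miR-1 hairpin, were also above the blanks on 0 of 6 arrays, with differences of 0.01 and -0.01. MiR-486, which is abundant in red blood cells as well as in muscle, was lower in EAU (-0.23, SE 0.05; adjusted p = 0.0468), but read 0.05 in the Hy3 channel alone (adjusted p = 0.918). It was above the blanks on 3 EAU and 2 naive arrays. The median difference of these 6 probes was -0.01, beside -0.01 over all tested probes, both rounded to 2 decimals.

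Probes named for rat or human alone hold the names of the same miRNAs. The rno-miR-1 probe read 114, 125 and 109 on EAU arrays 1 to 3, against 88.2, 183 and 105 on naive arrays 1 to 3, and was above the blanks on 2 of 6 arrays. Naive replicate 1, the highest array at the mouse miR-1 probe, was the lowest here in raw signal. Its log2 ratio was -0.14, -0.22 and -0.14 in EAU replicates 1 to 3, against 0.08, 0.03 and -0.03 in naive replicates 1 to 3. On this scale naive replicate 1 was the highest, as at the mouse probe. The groups did not overlap, beside 174 of 592 mouse probes (29.4%) lower in EAU and 275 (46.5%) in either direction. That share over probes of any species was not computed. The log2 ratio of rno-miR-1 differed by -0.19 (SE 0.04; adjusted p = 0.0519 over 1745 probes of any species). The hsa-miR-133b probe was above the blanks on 6 of 6 arrays, with a log2 ratio of -0.48 ± 0.11 in EAU and -0.14 ± 0.12 in naive (SD, n = 3 each; difference -0.34, adjusted p = 0.0697). What these probes bind in mouse RNA was not tested.

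Markers of other cell types moved as well, and their part in the muscle values was not tested. The list of smooth muscle and pericytes, cells of vessel walls, had 2 of 2 members lower in EAU, beside 8.72% of all tested probes: miR-145 by 0.45 (adjusted p = 0.00715) and miR-143 by 0.27 (adjusted p = 0.0294). In the Hy3 channel alone miR-145 passed (-0.55, adjusted p = 0.0158) and miR-143 did not (-0.21, adjusted p = 0.144). The list's mean log2 ratio was -0.11 to 0.01 on EAU arrays and 0.28 to 0.31 on naive arrays. The pigment epithelium list had 2 of 2 lower, with miR-211 at -0.50 (adjusted p = 0.00715). The neuron list had 3 of 5 lower, with miR-9 at -0.35 (adjusted p = 0.0214). The photoreceptor list had 1 of 3 lower, miR-183 at -1.38 (adjusted p = 0.0489, with a value on 2 of 3 EAU arrays). In the Hy3 channel alone, where 5.70% of all probes were lower in EAU, the photoreceptor list had 3 of 3 lower: miR-183 at -1.89, miR-96 at -1.42 and miR-182 at -1.80 (adjusted p = 0.00108, 0.0154 and 0.0207). In that channel the pigment epithelium list again had 2 of 2 lower. The neuron list had 1 of 5, miR-124 (-2.07, adjusted p = 0.0216, with a value on 2 of 3 EAU arrays), while miR-9, miR-128 and miR-129-3p no longer passed (adjusted p = 0.0601, 0.921 and 0.0637).

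The muscle list had 0 of 4 that passed, with a mean log2 ratio of -0.20 to -0.06 on EAU arrays and -0.01 to 0.20 on naive arrays. Neither endothelium (0 of 2, miR-126-3p -0.06) nor the ocular surface and lens epithelium (0 of 8, miR-203 -0.07) had a member that passed, in the ratio or in the Hy3 channel alone. MiR-203 was above the blanks on 0 EAU and 1 naive array. Of the same list, miR-205 (-0.19, adjusted p = 0.153) and miR-184 (0.04, adjusted p = 0.916) were above on 3 EAU and 3 naive arrays. In that list 5 of 8 differences were below 0. The erythroid list had 1 of 3 lower, miR-486, and 0 of 3 in the Hy3 channel. Only that 1 of its 3 differences was below 0, and the median of the list was 0.01. In the other direction, the leukocyte list had 1 of 5 higher, beside 25 of 596 tested probes. This was miR-142-3p, made by blood-derived cells, at 0.56 (adjusted p = 0.0168). It was above the blanks on 3 of 3 EAU and 0 of 3 naive arrays. Of the 5 leukocyte differences, 1 was below 0. In the Hy3 channel the leukocyte list had 2 of 5 higher, beside 29 of 596 tested probes. These were miR-142-3p (0.94) and miR-142-5p (0.77), with adjusted p-values of 0.031 and 0.0158. No difference between lists was tested.

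**Figure D3:**
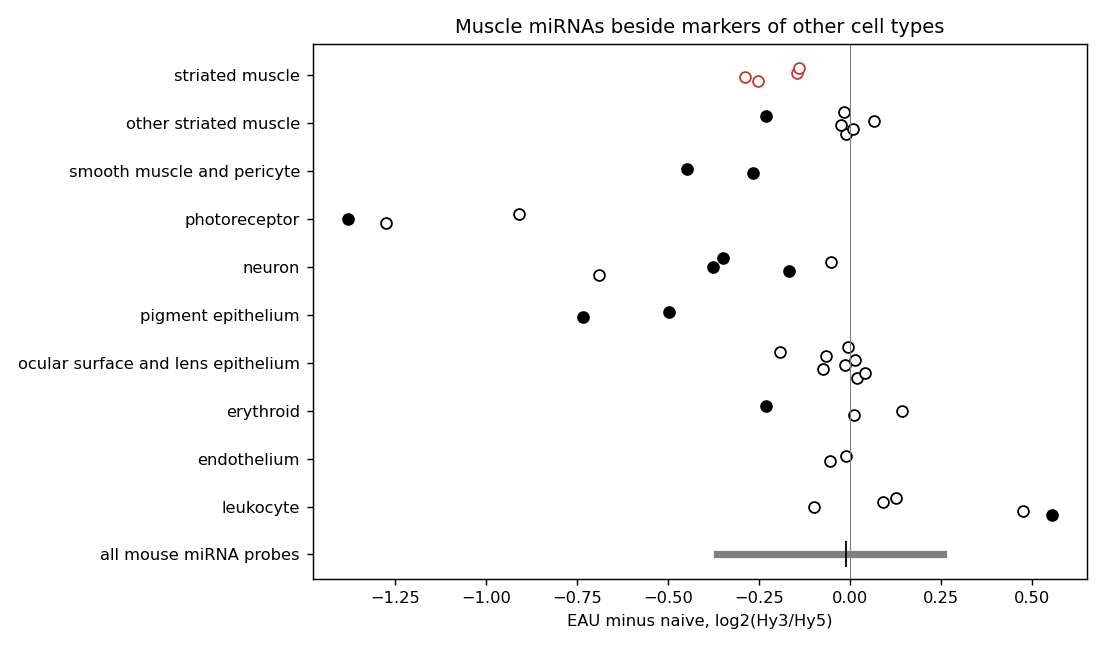
Difference of EAU minus naive in log2(Hy3/Hy5) for each member of the striated muscle list (red) and of the other lists (black). Filled circles passed an adjusted p of 0.05 in limma, and the grey bar spans the 5th to 95th percentile of all tested mouse probes (-0.37 to 0.26), with their median at -0.01. The 4 muscle miRNAs are open and lie inside that bar.

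The size of each difference depended on the processing. Over 24 other ways of processing, miR-1, miR-133a and miR-133b were lower in EAU in all 24, with differences from -0.77 to -0.12, from -1.03 to -0.13 and from -0.68 to -0.04, and miR-206 in 19, from -0.48 to 0.25. The largest were those of the scanner program's own processed signals, and a smaller added constant in the background correction (10 in place of 50) gave -0.54, -0.67, -0.41 and -0.28 for miR-1, miR-133a, miR-133b and miR-206. Of these, none passed the test except miR-133a in the deposited table.

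**Figure D4:**
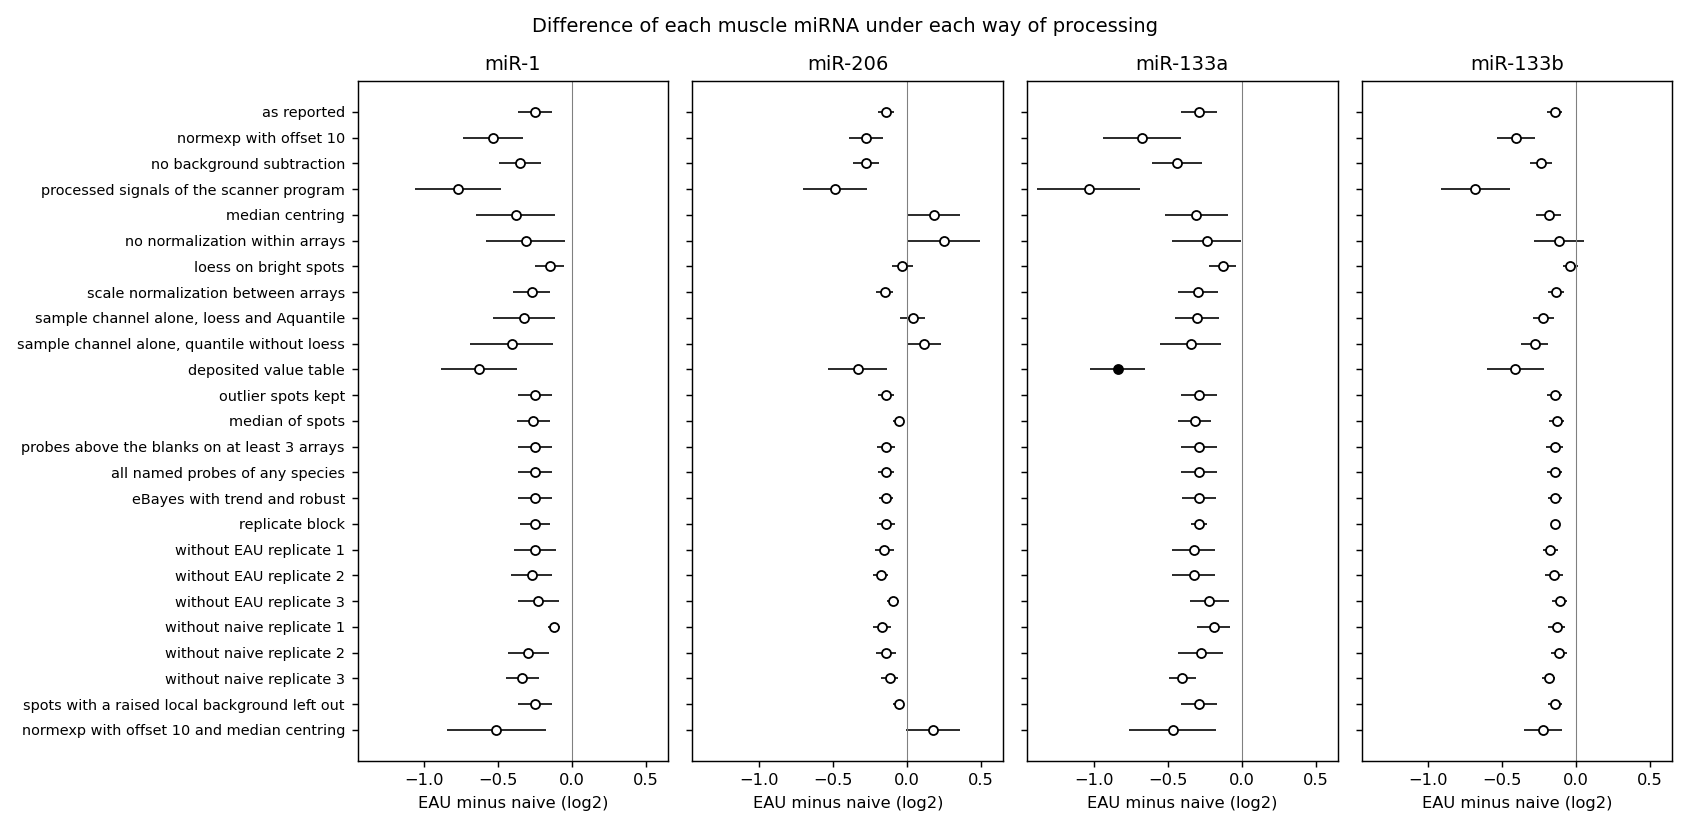
Difference of EAU minus naive (log2 units, ± SE) of each muscle miRNA as reported and under each other way of processing. The single filled circle, miR-133a in the deposited table, passed an adjusted p of 0.05. Points of miR-206 lie on both sides of 0 and those of the other 3 miRNAs below 0.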

How the data were processed

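Per the labels, 800 ng of total RNA per sample took the Hy3 dye and was hybridised together with an Hy5-labelled pool to a miRCURY LNA array. The authors deposited 1 scanner file per array with the intensity of 8720 spots in both channels; per the file headers, the scanner program was Agilent's Feature Extraction, version 9.1.3.1. The scanner program's flags (other 0 or 1 values) for outliers, saturation and signal well above background come from the same files, per the file headers. All spots of the 4 probes were flagged well above background, none as outlier or saturated. The deposited value table holds a linear ratio per probe, 1972 rows. Its column medians were 0.809, 0.886 and 0.807 for EAU and 0.879, 0.851 and 0.769 for naive replicates 1 to 3. Over 365 probes above the blanks in both channels, its log2 values had a median correlation across arrays of 0.957 with the processed-signal ratio, which gives the direction as Hy3 over Hy5. The median correlation with the log2(Hy3/Hy5) values reported here was lower, at 0.785. Normalization and centring stay unknown, and 36 rows above 32 on every array were left out.

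Mean signals were corrected by normexp (offset 50) and loess with control spots at weight 0, outlier spots were dropped and spots averaged in log2 (limma 3.58.1, R 4.3.3). The 596 mouse probes with enough values (let-7e had too few) were fitted with lmFit and eBayes, two-sided, Benjamini-Hochberg adjusted. The added constant compresses ratios of dim probes. The steps were tested on simulated data, where the check was the direction of large changes at brighter probes. It does not cover probes as dim as those of the muscle miRNAs or differences as small as theirs. Dyes were not swapped. The sample numbers are not stated to pair the samples. Deviations from group means of same-numbered samples correlated at 0.192, -0.152 and 0.290, beside -0.444 to 0.300 for differently numbered ones. With 3 samples per group these values cannot decide whether the samples pair. Members and lists were chosen with earlier results of these data known. Named are the 4 members, the further muscle names, the 5 most similar probes and the marker of each list with the smallest p. MiR-143, miR-124, miR-96, miR-182, miR-128, miR-129-3p, miR-138, miR-142-5p, miR-184 and miR-205 were named after their values were seen. Rat and human probes are given because they hold the name of a member.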

Additional observations from a re-analysis of the deposited data

How the results depend on the processing

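No call among the 4 muscle miRNAs was made or lost on leaving out any 1 array: 0 passed each time, with differences between -0.34 and -0.12 for miR-1, -0.40 and -0.19 for miR-133a, -0.19 and -0.11 for miR-133b, and -0.18 and -0.09 for miR-206. MiR-206 turned to 0.25 without normalization, to 0.18 when arrays were centred on the median, to 0.039 (Hy3 channel alone, loess and Aquantile) and 0.12 (Hy3 channel, quantile without loess), and to 0.18 with offset 10 and median centring together, with adjusted p-values from 0.563 to 0.918. The cause was not tested. In the deposited table miR-133a passed at -0.84 (adjusted p = 0.0067), so that 1 member passed there, and over all 24 alternatives its adjusted p ranged from 0.0067 to 0.899. The count of all mouse probes past the threshold, 77 as reported (25 higher and 52 lower), was 2 with median centring, 25 with no normalization (21 higher, 4 lower), 24 with loess on bright spots (17 higher, 7 lower), 47 with the median of spots, 43 without spots of raised background (20 higher, 23 lower) and 37 with offset 10 and median centring (36 higher, 1 lower). The split was 42 higher and 30 lower with the processed signals, 42 and 40 in the deposited table, and 29 and 34 in the Hy3 channel. It ranged from 8 to 79 on leaving out 1 array, with 8 without EAU replicate 3, and 9, 15 and 36 without naive replicates 1, 2 and 3. With the sample number as a replicate block, 2 probes passed and 0 muscle miRNAs, with adjusted p-values from 0.0983 to 0.230. The block lowered the SE of miR-1, miR-133a and miR-133b to 0.10, 0.05 and 0.03 and raised that of miR-206 to 0.06. Whether the numbers pair the samples is not stated. Of 24 probe and array pairs, 24 were above the blanks as reported, 13 with the scaled deviation and 0 with the 95th percentile. The settings on raised background, on offset 10 with median centring and on the scaled deviation were chosen after the data were seen. Signals this close to the blanks limit what any difference can show.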
